A study of Rattus norvegicus with 448 samples.

Results

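Genes of the cell division cycle were followed in the livers of outbred rats aged 17 weeks. The genes were fixed as a list of 5 Ensembl IDs, by a rule that takes no measured values: Mki67 (ENSRNOG00000028137), Cdk1 (ENSRNOG00000000632), Top2a (ENSRNOG00000053047), Cdkn1a (ENSRNOG00000000521) and Pcna. Of these 5, 4 have a row in the deposited table of 16796 genes, and Pcna, the sliding clamp of DNA polymerase, is not analysed here. The study set out to map genetic loci behind metabolic traits and to find genes whose liver expression might mediate them. It deposited gene levels, read here as FPKM (fragments per kilobase, with a scale factor for each library), and 430 of its liver libraries could be matched to a column of the table, while 18 are not analysed here. The labels place every library in the same group, liver at 17 weeks, and give no sex, treatment, genotype or batch, so there is no control group and the comparisons are between genes, between libraries and between libraries that share an identifier. They also do not say that each library is a separate animal, so p-values measure the spread between libraries, part of which may be technical.

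Most hepatocytes of an adult liver rest outside the cell cycle and can return to it after injury or loss of tissue. Mki67 encodes the nuclear antigen Ki-67, which coats mitotic chromosomes and is made by cycling cells. Cdk1 encodes the kinase that drives entry into mitosis, and Top2a the topoisomerase that untangles sister DNA strands before they separate. Transcription of these genes peaks late in the cycle. Cdkn1a encodes p21, an inhibitor of cyclin-dependent kinases and a known target of the tumour suppressor p53, and arrests the cycle when it is abundant. The promoters of late cell cycle genes are known for NF-Y boxes (CCAAT, bound by the factor NF-Y) and for cell cycle homology regions (CHR elements, TTTGAA), through which they are held silent in resting cells.

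The promoters of the 4 genes are shown because the first 3 genes moved together over the livers and the fourth did not move with them. Each run holds the 250 bases before the start listed by RefSeq on the GRCr8 build, 5′ to 3′ on the strand of the gene, and all 4 genes matched the RefSeq table by symbol. Capitals mark NF-Y boxes (CCAAT or, on the other strand, ATTGG) and CHR elements (TTTGAA or TTCAAA) in the first 3 runs, and a match to the p53 half-site consensus in the last. Mki67 lies on the minus strand at chr1:199952594-199952843, Cdk1 on the plus strand at chr20:19265043-19265292, Top2a on the minus strand at chr10:84473094-84473343 and Cdkn1a on the plus strand at chr20:7150682-7150931.
Mki67: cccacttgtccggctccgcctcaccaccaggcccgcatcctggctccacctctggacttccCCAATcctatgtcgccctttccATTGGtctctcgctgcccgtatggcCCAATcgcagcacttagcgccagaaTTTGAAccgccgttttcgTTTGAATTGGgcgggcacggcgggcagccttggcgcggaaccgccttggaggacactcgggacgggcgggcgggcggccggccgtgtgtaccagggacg
Cdk1: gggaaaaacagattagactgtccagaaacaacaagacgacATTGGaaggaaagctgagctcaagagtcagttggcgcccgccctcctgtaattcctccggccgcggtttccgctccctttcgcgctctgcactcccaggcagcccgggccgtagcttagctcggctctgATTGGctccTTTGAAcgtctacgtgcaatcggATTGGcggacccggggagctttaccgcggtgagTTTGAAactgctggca
Top2a: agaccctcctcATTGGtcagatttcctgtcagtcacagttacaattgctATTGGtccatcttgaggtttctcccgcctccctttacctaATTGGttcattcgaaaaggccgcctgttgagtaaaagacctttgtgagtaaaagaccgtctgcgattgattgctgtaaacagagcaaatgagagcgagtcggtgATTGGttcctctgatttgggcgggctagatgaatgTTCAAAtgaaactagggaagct
Cdkn1a: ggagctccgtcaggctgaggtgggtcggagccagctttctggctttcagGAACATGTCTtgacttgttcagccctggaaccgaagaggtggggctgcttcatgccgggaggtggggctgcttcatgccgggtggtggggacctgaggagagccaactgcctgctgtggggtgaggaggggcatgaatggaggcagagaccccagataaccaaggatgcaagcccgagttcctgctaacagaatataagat

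The Mki67 window held 4 NF-Y boxes, whose first bases lie at -189, -167, -142 and -94 from the start, and 2 CHR elements at -117 and -99. The box at -94 and the element at -99 share 1 base. Cdk1 had 3 NF-Y boxes at -210, -81 and -49 and 2 CHR elements at -72 and -16, and Top2a had 4 NF-Y boxes at -239, -201, -161 and -57 and 1 CHR element at -22. In Cdkn1a neither motif was found, and the p53 half-site consensus was matched once, from -201 to -192; it was not matched in the other 3 windows. Of 33465 windows of the same length in the RefSeq table, 34% held an NF-Y box on either strand, 16.2% a CHR element, 5.87% both, and 6.64% a p53 half-site. A match is a run of letters and not a shown binding site, and the absence of one says nothing of the factor. RefSeq lets Mki67 extend to base 199952847 and has Cdk1 begin at 19265252 and Cdkn1a at 7150820, so these 3 windows overlap transcripts that start further upstream. The Mki67 window lies wholly inside that extent, with all of its matches. The Cdk1 window lies inside in part, with its CHR element at -16. The Cdkn1a window lies inside in part, without its half-site.

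**Figure D1:**
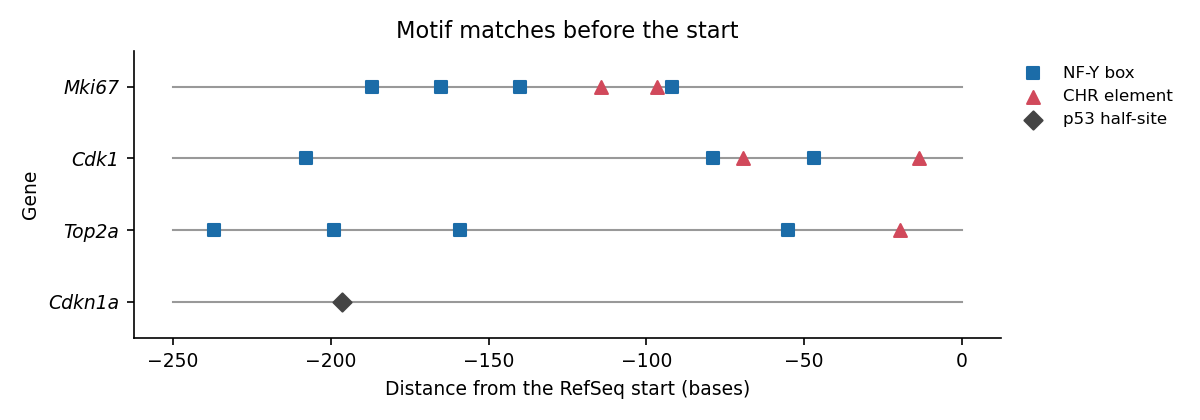
Positions of motif matches in the 250 bases before the RefSeq start of the 4 genes, with the distance from the start in bases on the x axis and a gene per row; squares stand for NF-Y boxes, triangles for CHR elements and the diamond for the p53 half-site. Both NF-Y boxes and CHR elements appear in Mki67, Cdk1 and Top2a, and Cdkn1a shows the half-site alone.

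The 430 libraries held a median of 23522293 reads recovered from the table, with quartiles of 18842187 and 27609780 and a range of 165168 to 60084985, and 28 libraries lay under 10000000. These depths are a reconstruction from the steps in the values. The number of genes above 0 was 7108 to 16613 with a median of 15877. The first principal component of the libraries took 44.1% of the variance. The 22 libraries with the fewest genes (14117 or fewer) stand apart, and values that rest on them are given both ways. The table does not pair IDs with gene names, so the liver label could not be checked against liver markers, and markers of blood, immune or stromal cells could not be measured beside the cell cycle genes. In whole tissue, more cycling cells and more RNA per cycling cell cannot be told apart, and neither can the cell types that make the transcript.

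The 3 genes of division were barely detected, and Cdkn1a was among the more abundant genes. Mki67 ranged over the 430 libraries from 0 to 0.898 FPKM, with a median of 0.114 and quartiles of 0.0754 and 0.164 FPKM. Top2a ranged from 0 to 2.31 FPKM with a median of 0.167 and quartiles of 0.105 and 0.247 FPKM. Cdk1 ranged from 0 to 3.44 FPKM with a median of 0.252 and quartiles of 0.135 and 0.435 FPKM. Cdkn1a ranged from 2.14 to 163.9 FPKM with a median of 54.5 and quartiles of 32.5 and 82.8 FPKM. By mean level, Mki67 stood above 8.92%, Top2a above 12.7%, Cdk1 above 17.8% and Cdkn1a above 89.7% of the 16040 genes tested.

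In most livers the division genes therefore rest on few reads. The median library held 28 reads of Mki67, 22 of Top2a and 8 of Cdk1, against 2426 of Cdkn1a, and the highest counts of Top2a, Cdk1 and Cdkn1a were 170, 98 and 11779. The gene lengths implied by these reads and levels were about 10 kb for Mki67, 5.9 kb for Top2a, 1.5 kb for Cdk1 and 2.1 kb for Cdkn1a, so the same level gives Cdk1 fewer reads than Mki67. Mki67 was at 0 in 10 libraries, Top2a in 9 and Cdk1 in 30, and Cdkn1a in none of the 430. Of these libraries at 0, 8 for Mki67, 7 for Top2a and 10 for Cdk1 were among the 22 with the fewest genes. A count of 0 allowed up to 3 reads, a level of at most 0.0117 to 2.29 FPKM for Mki67, 0.0194 to 4.05 FPKM for Top2a and 0.0662 to 16.1 FPKM for Cdk1, depending on depth and for counting error alone, with each read taken singly. If mates were counted in pairs, 3 pairs allowed 0.0234 to 4.59 FPKM for Mki67, 0.0389 to 8.11 FPKM for Top2a and 0.132 to 32.1 FPKM for Cdk1. These limits reach above the median level of each gene, so in shallow libraries an absent transcript could not be told from one at a usual level.

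The genes stood in an order on the FPKM scale, which is per length. Cdkn1a exceeded Cdk1 in 430 of 430 libraries, by a mean of 5.24 ± 1.07 on the log2(FPKM + 1) scale (SD over libraries). Cdk1 exceeded Top2a in 74.2% of the libraries and equalled it in 3, with a mean log2 difference of 0.134 ± 0.262. Top2a exceeded Mki67 in 74% and equalled it in 4, with a mean log2 difference of 0.0738 ± 0.144. Each of the 3 steps passed a two-sided sign-flip permutation test (adjusted p = 1e-05, the smallest that 100000 resamples can give). The SDs of the lower steps are larger than their means, so in single livers the order of Cdk1, Top2a and Mki67 varied.

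**Figure D2:**
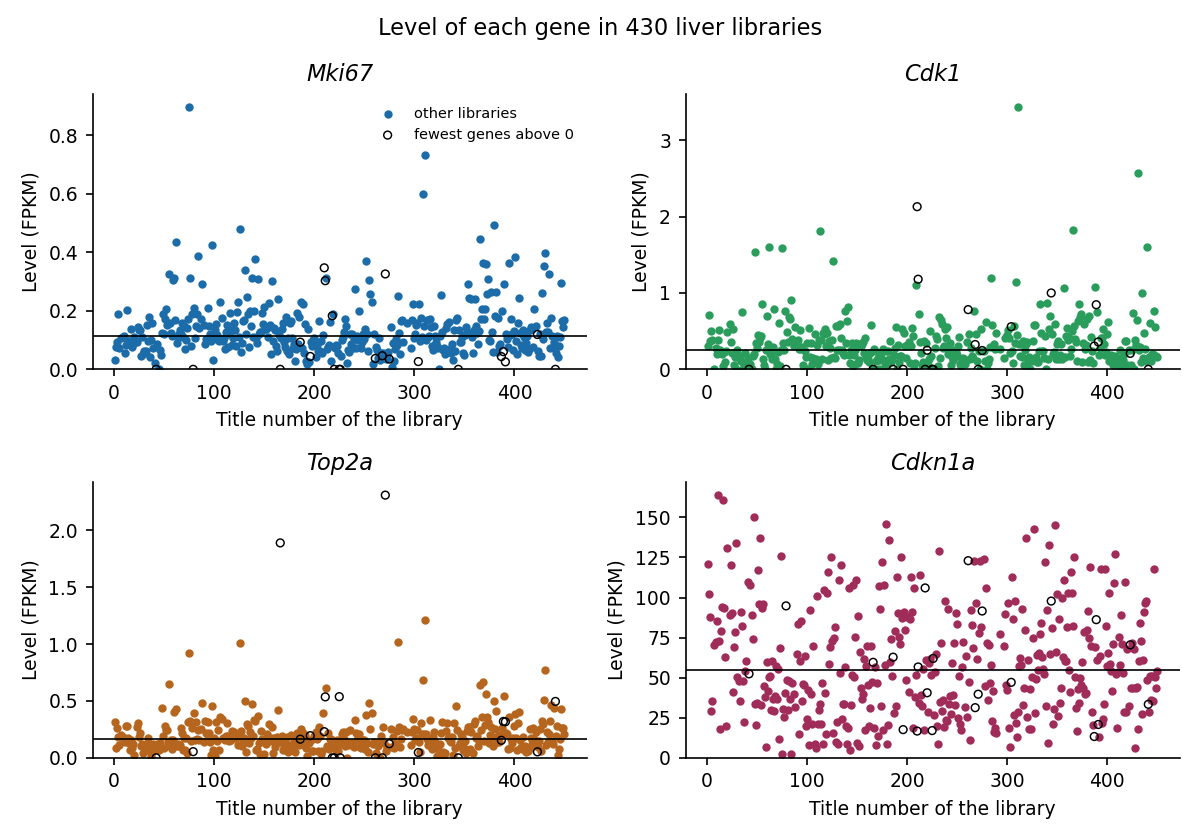
Level in FPKM on the y axis of Mki67, Cdk1, Top2a and Cdkn1a in each of 430 liver libraries, placed on the x axis by title number; the line is the median and open circles are the 22 libraries with the fewest genes above 0. The division genes lie near the bottom of their axes with a few libraries far above, such as 0.898 FPKM of Mki67, and Cdkn1a is spread from 2.14 to 163.9 FPKM; the 2 highest Top2a points are open circles.

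Cdkn1a varied between livers more than most genes of its level. Its SD was 0.998 on the log2(FPKM + 1) scale, above that of 98.6% of all genes and of 97.7% of the 938 genes within 0.5 log2 units of its mean. The 95th percentile of its level, 122.4 FPKM, was 9.52 times the 5th percentile, 12.9 FPKM, and the highest library was 76.7 times the lowest. Under 10 FPKM lay 19 libraries, and over 100 FPKM lay 60. Counting error made up 0.23% of the variance of its FPKM if each read counts on its own and 0.46% if reads were counted in pairs. It is thus a small part of the spread in FPKM.

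The SDs of the division genes were 0.116 for Mki67, 0.186 for Top2a and 0.299 for Cdk1 (log2 scale). They lay above those of 24.7%, 51.2% and 77.5% of the genes within 0.5 log2 units of their means. With means of 0.179, 0.253 and 0.387, these bands were wide, at 4093, 4346 and 4771 genes, and took in more abundant ones. The shares rise in the order of the means, so they do not compare these genes with equally scarce ones. Counting error was computed on the FPKM scale and not on the log2 scale of these SDs. It came to 7.8% of the FPKM variance of Mki67, 19.5% of that of Top2a and 11.3% of that of Cdk1 if reads were independent. Reads of the low genes were nearly all even in number, 89.3% of the counts above 0 for Mki67, 96.4% for Top2a and 98.8% for Cdk1, as they would be if both mates of a fragment were counted, which was not tested. Taken in pairs, the shares of counting error were 15.6%, 39.1% and 22.6%, or 12.5%, 14.1% and 19.4% once those 22 libraries were left out.

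Mki67, Top2a and Cdk1 tended to rise and fall together over the livers. Mki67 and Top2a had a Pearson correlation of 0.634 (95% interval 0.574 to 0.687) and a Spearman correlation of 0.597 over 430 libraries on the log2(FPKM + 1) scale. Mki67 and Cdk1 had 0.543 (0.472 to 0.606) and 0.391, and Cdk1 and Top2a had 0.5 (0.426 to 0.568) and 0.534. For these 3 pairs both measures had an adjusted p of 2e-05 in two-sided permutation tests, the smallest that 100000 resamples and adjustment over all 6 pairs of genes can give. The correlation was positive for each of the 3 pairs in each of 4 blocks of consecutive title numbers, at 0.386 to 0.74 for Mki67 with Top2a, 0.499 to 0.588 for Mki67 with Cdk1 and 0.404 to 0.673 for Cdk1 with Top2a.

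The relation did not rest on the extreme livers. Without LSW_75 and LSW_311, the libraries farthest from the Mki67 median, the correlation of Mki67 was 0.593 with Top2a and 0.485 with Cdk1, and without LSW_311 and LSW_431, farthest from the Cdk1 median, Mki67 with Cdk1 was 0.494 and Cdk1 with Top2a 0.447. Without LSW_271 and LSW_166, farthest from the Top2a median, Mki67 with Top2a was 0.727 and Cdk1 with Top2a 0.634. Without the 22 libraries with the fewest genes the values were 0.764 for Mki67 with Top2a, 0.691 for Cdk1 with Top2a and 0.563 for Mki67 with Cdk1. Depth and the main component moved with these genes unequally. Mki67 correlated with log10 recovered reads at 0.191, with the number of genes above 0 at 0.215 and with the first component at 0.241 (adjusted permutation p = 0.00236, 0.00176 and 1.6e-04 over 16 relations). Cdk1 correlated at -0.0166 with reads and at -0.211 with the first component (adjusted permutation p = 0.807 and 1.6e-04). Without the 22 libraries it was -0.19 with reads, -0.188 with genes above 0 and -0.269 with the first component (adjusted permutation p = 6.80e-04, 8.64e-04 and 1.6e-04). With the first 5 components removed, the correlation was 0.648 for Mki67 with Top2a, 0.608 for Mki67 with Cdk1 and 0.54 for Cdk1 with Top2a.

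**Figure D3:**
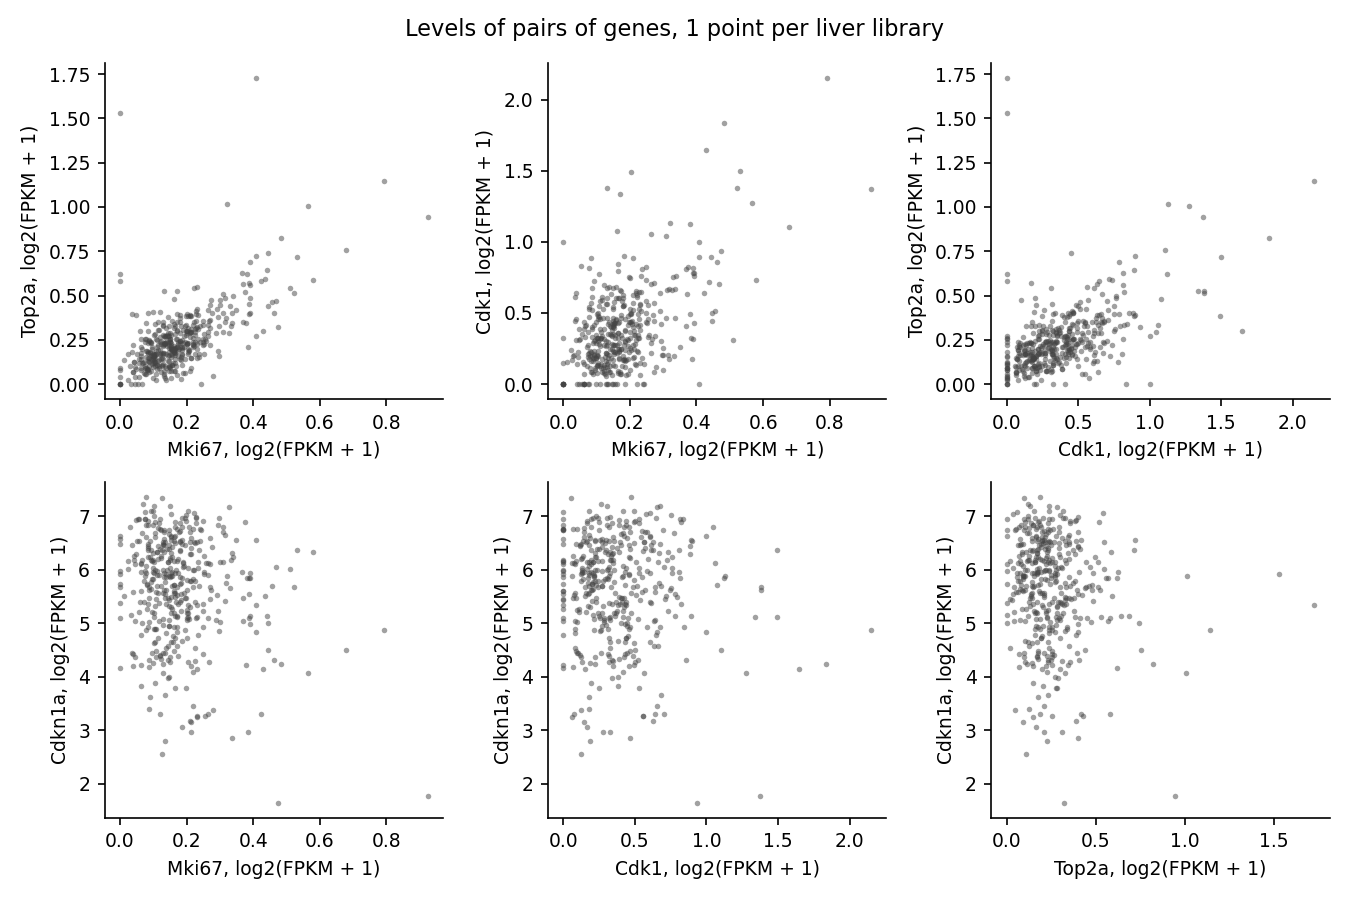
Levels of pairs of genes on the log2(FPKM + 1) scale, a point per library (430 in each panel). In the upper row Mki67, Cdk1 and Top2a rise together, with correlations of 0.634, 0.543 and 0.5. In the lower row Cdkn1a has correlations of -0.196 with Mki67, -0.0833 with Cdk1 and -0.124 with Top2a.

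Among all genes in the table, the closest to Mki67 was Top2a. No gene of the other 16038 had a higher correlation with Mki67 than Top2a, and none had a higher correlation with Top2a than Mki67, although the next gene in line to Mki67 also stood at 0.634. Cdk1 was preceded by 11 genes in its correlation with Mki67 and by 10 in its correlation with Top2a. From the side of Cdk1, 11 genes were closer than Mki67 and 19 closer than Top2a. With the first 5 components removed, 0 genes were closer to Mki67 than Top2a, 3 were closer than Cdk1, and 1 was closer to Cdk1 than Mki67. Over 8 alternatives of processing, 0 to 5 genes were closer to Mki67 than Top2a and 1 to 34 closer than Cdk1.

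The group of genes this close was small and scarce. Correlations of 0.5 or more were reached by 20 genes with Mki67, 20 with Cdk1 and 11 with Top2a, of 16039 each. All of these 20, 20 and 11 genes had a mean under 1 on the log2(FPKM + 1) scale, with medians of 0.171, 0.178 and 0.274, where 32% of all genes lie under 1 and the median gene is at 2.18. The IDs are not paired with names in the sources used here, so a list of other cell cycle genes could not be drawn up.

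In limma's fit of every gene on the level of Mki67, 44.1% of genes were called higher and 18.9% lower with higher Mki67, at an adjusted p under 0.05, and Top2a (adjusted p = 1.29e-45) and Cdk1 (2.64e-31) were among those higher. With the first 5 components as covariates the shares were 3.12% and 1.72%, and Top2a (5.68e-48) and Cdk1 (6.69e-41) were still called. In the fit on Cdk1, 25.6% of genes were called higher and 28.1% lower, or 5.90% and 4.36% with the components as covariates, and Mki67 and Top2a were higher in both. In the fit on Top2a, 9.71% were called higher and 8.24% lower, or 30.5% in either direction with the components, a share that was 2.66% without the 22 libraries, 5.58% with normal scores and 6.17% with limma-voom. Mki67 and Cdk1 were higher in both. Of the genes called with Cdk1, 61.2% were higher after upper quartile rescaling of the libraries and 47.7% before it, so the direction of the broad calls depends on scaling, while those of the division genes held.

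**Figure D4:**
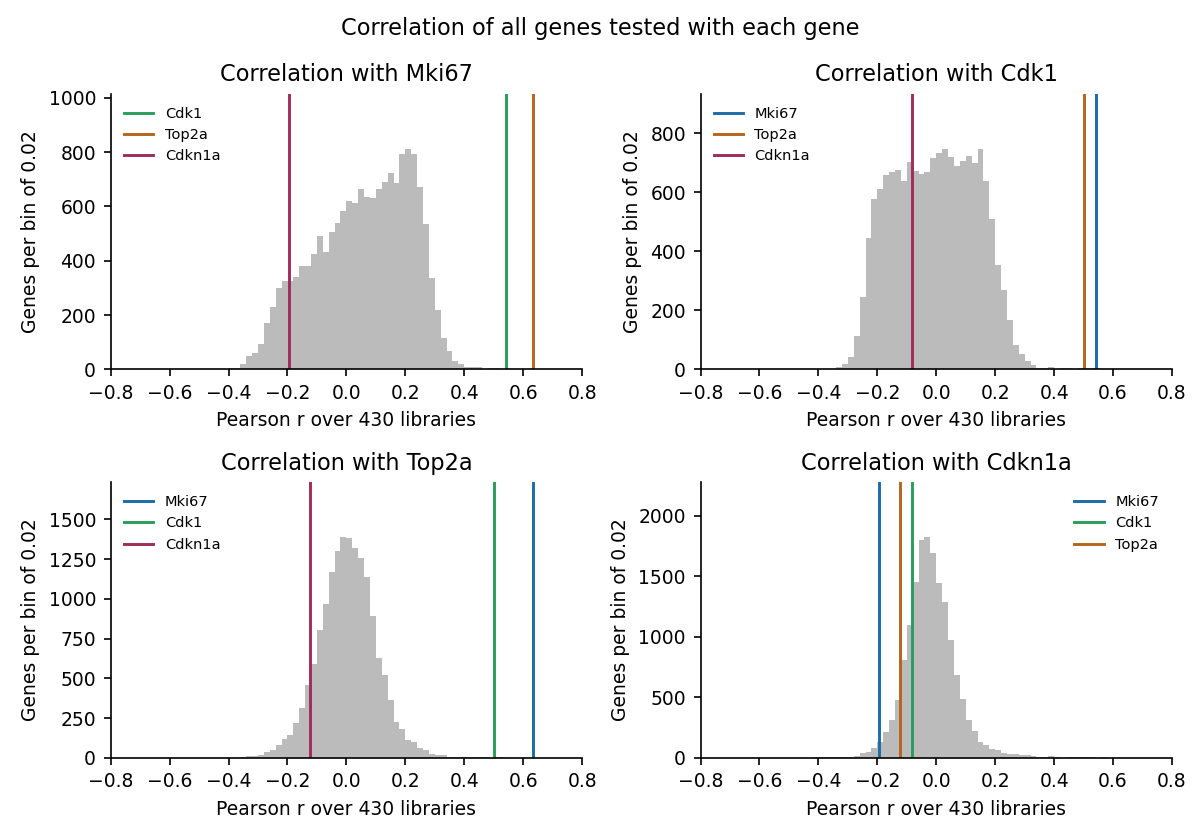
Distribution of the Pearson correlation over 430 libraries of every gene tested with Mki67, Cdk1, Top2a and Cdkn1a, as genes per bin of 0.02, with lines at the other cell cycle genes. In the first 3 panels the lines of the division genes stand beyond nearly all genes, at 0.5 to 0.634, and the Cdkn1a line lies within the distribution.

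Cdkn1a went weakly against Mki67 and Top2a, and on the values as deposited its correlation with Cdk1 did not pass the test. Its correlation was -0.196 with Mki67 (95% interval -0.285 to -0.103, Spearman -0.109) and -0.124 with Top2a (-0.216 to -0.0296, Spearman -0.114), and both pairs passed the permutation test with Pearson's measure (adjusted p = 1.2e-04 and 0.0127) and with Spearman's (adjusted p = 0.0278 and 0.0263). The Spearman calls were less stable: under upper quartile rescaling both were lost (adjusted permutation p = 0.118 and 0.0963), that with Top2a was lost without the 22 libraries (0.0876) and that with Mki67 with the first component removed (0.0632). With Cdk1 the Pearson correlation was -0.0833 (-0.176 to 0.0114, adjusted permutation p = 0.0855) and the Spearman correlation -0.0274 (adjusted permutation p = 0.572). When the first 5 components were removed they were -0.105 and -0.0559 (adjusted permutation p = 0.0297 and 0.248). Part of this leaned on 2 livers. Without LSW_84 and LSW_75, the libraries with the lowest Cdkn1a, the Pearson correlation was -0.125 with Mki67 (permutation p = 0.00974) and -0.0918 with Top2a (permutation p = 0.0574). With Cdk1 it was then -0.0385 (permutation p = 0.427).

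The opposition was uneven along the series of libraries. In the 4 blocks of title number it was -0.399, -0.195, -0.101 and -0.0724 for Mki67, -0.222, -0.142, -0.0311 and -0.182 for Top2a, and -0.262, -0.167, 0.0908 and 0.0099 for Cdk1. The differences between blocks were not tested. Among the 43 libraries (10%) highest in Mki67, 28 (65.1%) were among the 43 highest in Top2a, 22 (51.2%) among those highest in Cdk1 and 2 (4.65%) among those highest in Cdkn1a, while 9 were among the 43 lowest in Cdkn1a. Of the 43 libraries highest in Top2a, 2 (4.65%) were among the highest and 5 among the lowest in Cdkn1a. For Cdk1 these counts were 5 (11.6%) and 5. All 3 division genes had 16 of their highest libraries in common (37.2% of each 43).

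In the fit of all genes on Cdkn1a, 4.03% of genes were called higher and 6.23% lower, or 9.82% and 12.1% with the first 5 components as covariates. Mki67 was among the lower genes in both (adjusted p = 0.00128 and 4.47e-04, limma), Top2a in the second (0.0799 and 0.0334) and Cdk1 in neither (0.293 and 0.103). With the components, Mki67 was called in 6 of 8 alternatives and Top2a in 4 of 8. Of the 16039 genes, 15780 had a higher correlation with Cdkn1a than Mki67 had. The genes closest to Cdkn1a were ENSRNOG00000021403 and ENSRNOG00000003256, with correlations of 0.675 and 0.634, and the most opposed were ENSRNOG00000017244 and ENSRNOG00000015577, at -0.465 and -0.462. They were picked as the ends of this ranking after the values were seen, and no name is given to them in the sources used here. The 14 genes at 0.5 or more had a median level of 4.24 on the log2(FPKM + 1) scale, far above the genes that went with the division markers. Of the genes called with Cdkn1a, 84.7% were higher after upper quartile rescaling and 39.2% before it, so the split of these calls depends on scaling.

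Single livers show the range of states. LSW_75 had the highest Mki67, 0.898 FPKM, with 1.59 FPKM of Cdk1, 0.924 FPKM of Top2a and 2.43 FPKM of Cdkn1a, the lowest Cdkn1a but 1. LSW_311 had 0.732 FPKM of Mki67, the highest Cdk1 at 3.44 FPKM from 98 reads, 1.21 FPKM of Top2a and 28.5 FPKM of Cdkn1a. These livers stand high in all 3 division genes, with Cdkn1a below its median of 54.5 FPKM in both. LSW_366 had 0.446 FPKM of Mki67, 1.82 FPKM of Cdk1, 0.642 FPKM of Top2a and 82.2 FPKM of Cdkn1a, so high division genes also occurred with Cdkn1a above its median. LSW_84 had the lowest Cdkn1a, 2.14 FPKM, with 0.389 FPKM of Mki67, 0.909 FPKM of Cdk1 and 0.249 FPKM of Top2a. LSW_109 had 5.95 FPKM of Cdkn1a with 0.0975 FPKM of Mki67, 0.136 FPKM of Cdk1 and 0.172 FPKM of Top2a, a liver low in Cdkn1a whose Mki67 and Cdk1 lay under their medians. LSW_11 had the highest Cdkn1a, 163.9 FPKM, with 0.0555 FPKM of Mki67, 0.389 FPKM of Cdk1 and 0.137 FPKM of Top2a.

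The 2 highest levels of Top2a came from shallow libraries. LSW_271 had 2.31 FPKM of Top2a from 8 reads in a library of 890188, and LSW_166 had 1.89 FPKM from 2 reads in 212592, and both were at 0 for Cdk1. Without the 22 libraries with the fewest genes the highest Top2a level was 1.21 FPKM, in LSW_311. By Pearson's measure, Top2a correlated with log10 recovered reads at -0.174 over all libraries (adjusted permutation p = 0.00899) and at 0.019 without the 22 (adjusted permutation p = 0.703). By Spearman's it was 0.0447 with reads and 0.132 with genes above 0 over all libraries (adjusted permutation p = 0.472 and 0.0159). Without the 22 libraries the Spearman values were 0.0284 and 0.129 (adjusted permutation p = 0.648 and 0.0228). Cdk1 in LSW_210, rank 3 at 2.13 FPKM, was likewise from 14 reads in a library of 4925108.

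Libraries that share the first part of their identifier were more alike in these genes, with the highest value for Cdkn1a. The labels do not say what that part stands for. It is shared by 2 libraries in 83 cases and by 3 in 9, which gives 92 identifiers and 110 pairs. The intraclass correlation, the part of the variance found between and not within identifiers, was 0.544 for Cdkn1a (adjusted p = 6.95e-08, limma's moderated F test over all genes), 0.328 for Mki67 (adjusted p = 0.00267), 0.327 for Top2a (adjusted p = 0.00215) and 0.251 for Cdk1 (adjusted p = 0.0118). All 4 genes were called, as were 49.8% of all genes tested, so the call alone says little. The size stood out for Cdkn1a, since 0.704% of the 16040 genes had a higher intraclass correlation, against 13.7% for Mki67, 13.8% for Top2a and 31.4% for Cdk1. The differences between the 4 genes were not tested. This ranking is over genes of all levels, and counting error adds to the variance within identifiers. Taken in pairs, counting error was 15.6% of the FPKM variance of Mki67 over all 430 libraries, 39.1% for Top2a, 22.6% for Cdk1 and 0.46% for Cdkn1a. Without the 22 libraries with the fewest genes these shares were 12.5%, 14.1%, 19.4% and 0.228%. They are not on the log2 scale of the intraclass correlation. The part of counting error in the gap between the genes was not tested. Over 10 alternatives Cdkn1a stayed at 0.504 to 0.573, with 0.349% to 2.48% of genes above it. Without the 22 libraries with the fewest genes Cdk1 was at 0.201 with an adjusted p of 0.0654. The permutation tests between genes treat libraries as independent, so the correlations were also taken within identifiers, a choice made after seeing the data. Over the deviations of the libraries of the 92 identifiers from the mean of their identifier, with values permuted within identifiers, Mki67 correlated with Top2a at 0.716, Cdk1 with Top2a at 0.634 and Mki67 with Cdk1 at 0.502 (adjusted permutation p = 3e-05, 3e-05 and 1.2e-04 over 6 pairs). Cdkn1a stood at -0.307 with Mki67, -0.317 with Top2a and -0.122 with Cdk1 (adjusted permutation p = 0.0959, 0.0277 and 0.448), so its opposition to Mki67 did not pass this test. Without the identifier of LSW_75 these 3 values were -0.07, -0.135 and 0.0451 (permutation p = 0.471, 0.119 and 0.709), so within identifiers the opposition of Cdkn1a rested on that identifier, while the division genes kept 0.635, 0.577 and 0.408 (permutation p = 1e-05, 1e-05 and 7.2e-04).

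Pairs that were close in the series but had different identifiers were less alike. Over pairs of libraries, the correlation of Cdkn1a was 0.567 in the 110 pairs that share an identifier, 0.0178 in 2350 other pairs at most 6 title numbers apart, and -0.0109 in 55571 pairs more than 100 apart. The median fold between libraries of a pair was 1.36 in sharing pairs, 1.86 in neighbouring pairs and 1.88 in distant pairs, and 73.6%, 54.3% and 53.9% of these pairs differed by less than 2-fold. For Mki67 the pair correlation was 0.412 in sharing, 0.0959 in neighbouring and -0.0107 in distant pairs. For Top2a it was 0.367, 0.0177 and -0.00406, and for Cdk1 it was 0.289, 0.0604 and -0.00828, in the same order. These pair values are descriptions, since the same libraries enter many pairs.

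The identifiers shared by 3 libraries show the likeness and its exceptions. LSW_440, LSW_443 and LSW_445 had 48.3, 51.1 and 51.2 FPKM of Cdkn1a, a range of 1.06-fold. LSW_307, LSW_309 and LSW_311 had 26.6, 21.7 and 28.5 FPKM, and LSW_244, LSW_246 and LSW_248 had 27.3, 39.2 and 32.7 FPKM. In 5 more cases the range was 1.45-fold to 2.62-fold. The widest was that of LSW_73, LSW_75 and LSW_76, with 68.6, 2.43 and 30.7 FPKM, where the liver highest in Mki67 broke with both of its partners. Mki67 in these was 0.14, 0.898 and 0.312 FPKM. In LSW_307, LSW_309 and LSW_311, by contrast, Mki67 was 0.175, 0.6 and 0.732 FPKM, so the libraries ranked 2 and 3 for Mki67 share an identifier.

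**Figure D5:**
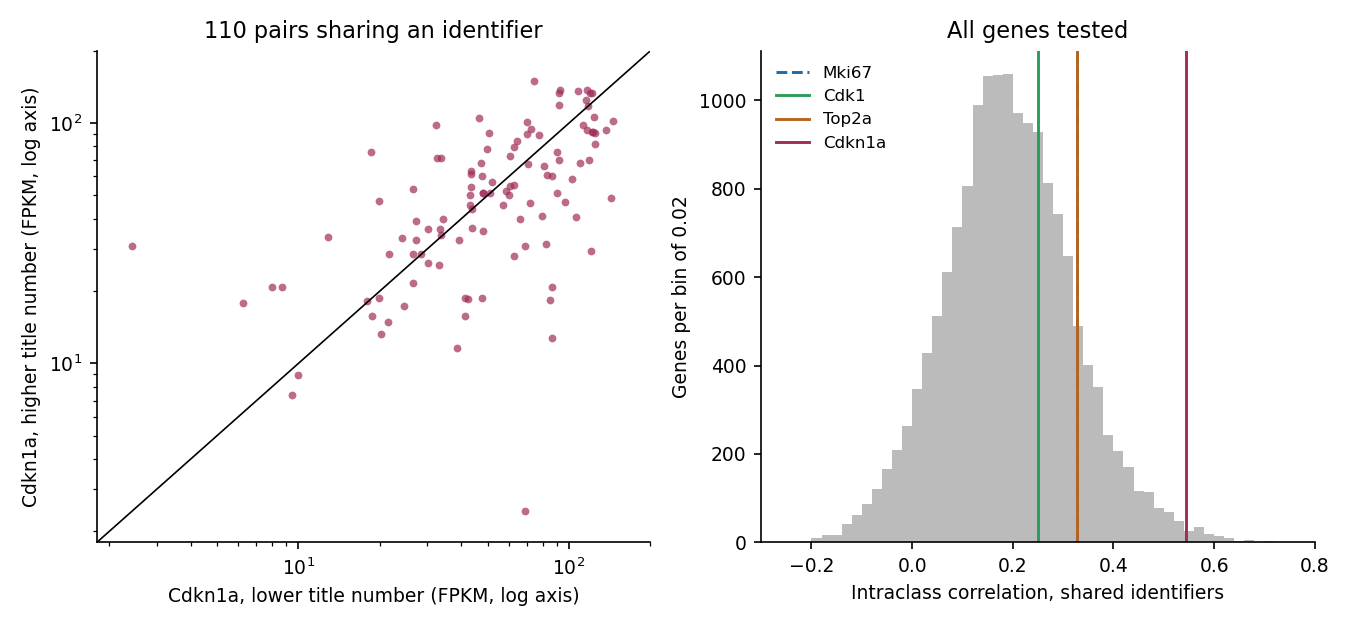
On the left, Cdkn1a in FPKM on log axes in the 110 pairs of libraries that share an identifier, with the line of equality; on the right, the intraclass correlation of every gene tested, as genes per bin of 0.02, with lines at the 4 genes. Most pairs lie near the line, and Cdkn1a at 0.544 stands at the right edge of all genes, while Mki67 and Top2a overlap at 0.328 and 0.327.

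None of the 4 genes passed the test for a linear trend over the title number, where 3.53% of all genes were called higher and 3.47% lower. The slope per 100 title numbers on the log2(FPKM + 1) scale was 0.00135 ± 0.00433 (SE) for Mki67, 0.0147 ± 0.0111 for Cdk1, 0.0107 ± 0.00693 for Top2a and 0.0372 ± 0.0371 for Cdkn1a, with adjusted p-values of 0.918, 0.502, 0.406 and 0.643 (limma). A linear slope over the whole series does not show changes within it. Inside the 4 blocks of title number, Cdkn1a correlated with the title number at -0.408, 0.119, 0.112 and -0.118. For Mki67 these values were 0.207, -0.351, 0.0542 and -0.0972. They were 0.19, -0.16, 0.0447 and 0.0781 for Top2a, and 0.114, -0.0809, 0.086 and -0.123 for Cdk1. These block values were not tested. No relation of Cdkn1a to a measure of library depth passed the test on the values as deposited. Its correlation was -0.0152 with log10 recovered reads, -0.0242 with the number of genes above 0 and -0.0379 with the first component (adjusted permutation p = 0.807, 0.807 and 0.632). Under upper quartile rescaling the first 2 of these were 0.132 and 0.128, with adjusted permutation p of 0.0211 and 0.0236.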

How the data were processed

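Paired-end reads of 37 bp came from snap-frozen liver, per the labels. The submitters' processing notes name STAR, Picard, featureCounts and DESeq2, with no versions. Build and annotation were not given in the sources used here. Deposited values carry no unit in the header and were read as FPKM from the values: each is a whole multiple of a library step and a gene step (100.00% of values of 16794 genes, tolerance 0.001). The library step follows a median-ratio size factor (coefficient of variation of the product 0.00025) and not the total (0.072). The reads recovered from the deposited FPKM give the depth and a limma-voom alternative. In the table, 1 further column matched no library and was not used.

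Tests used log2(FPKM + 1) of genes that reached 0.1 FPKM in 10% of libraries or more, which all 4 cell cycle genes passed, so fold changes of low genes are understated. R 4.3.3 with limma 3.58.1 (variance trend) fitted each gene across the whole table on the level of a cell cycle gene, on the title number, or on the identifier with a spline (4 degrees of freedom) over the title number. P-values were adjusted by Benjamini and Hochberg's method and called at 0.05. Permutation tests (numpy 2.4.6, scipy 1.17.1) drew 100000 resamples. Intervals of correlations are at 95% by Fisher's transformation. The fits were tested on simulated data with known relations, drawn as normal values. That setting has no counts of 0, depth effect or shared component, so it does not cover genes of few reads. The rule that lists the 5 IDs takes no measured values, but the genes and lists were chosen with earlier results of these data known. The planned lists of pathway and cell type genes, and the rule that names genes by symbol, could not be applied, since 0 IDs matched a name. The pairing of symbol and ID for the 4 genes came with the list that defines them. Promoter sequences are RefSeq's (GRCr8). Limits at a count of 0 cover counting error alone.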

Additional observations from a re-analysis of the deposited data

How the results depend on the processing

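The alternatives were pseudocounts of 0.1 and 5, no filter on low values or a filter at 1 FPKM, upper quartile rescaling, removal of components, normal scores, no spline, limma-voom on recovered reads and omission of the 22 libraries with the fewest genes. The order of levels and the identifier resemblance of Cdkn1a, Mki67 and Top2a kept their direction and their side of the threshold under each of these alternatives run for them. In the permutation tests, so did the Pearson correlations among Mki67, Cdk1 and Top2a and those of Cdkn1a with Mki67 and Top2a. The exceptions follow, and the cause was not tested. The Pearson correlation of Cdk1 with Cdkn1a passed the threshold with 5 components removed (-0.105), and the Spearman correlation did not (-0.0559, adjusted permutation p = 0.248). The Spearman calls of Cdkn1a missed it with upper quartile rescaling for Mki67 and Top2a, without the 22 libraries for Top2a and with the first component removed for Mki67. Within shared identifiers, an alternative added after seeing the data, Mki67 with Cdkn1a missed it at -0.307 (adjusted permutation p = 0.0959), and the other 5 pairs kept their side of it. The resemblance of Cdk1 missed it without the 22 libraries (0.201). Shares of genes called moved more. With components as covariates, 4.84% of genes went with Mki67, and 26.3% at a pseudocount of 0.1. For Cdk1 it was 10.3%, and 1.61% without the 22 libraries, 4.01% with normal scores and 4.75% with limma-voom. For Top2a it was 30.5%, and 13.7% with upper quartile rescaling, 2.66% without the 22 libraries, 5.58% with normal scores and 6.17% with limma-voom. Without components it was 17.9% for Top2a, and 28.7% at a pseudocount of 0.1, 43.5% with normal scores and 48.8% with limma-voom, and for Cdkn1a 10.3%, and 15.5% without the 22 libraries. A trend over the title number was called for 3.53% of genes upward and 3.47% downward, and for 20.7% in all with components and 11% without the 22 libraries. Resemblance was called for 49.8%, and for 24.4% without the 22 libraries and 75.3% with normal scores. The weak Pearson correlation of Top2a with depth changed sign: with genes above 0 it was -0.159, against 0.0132 with upper quartile rescaling and 0.0799 without the 22 libraries, and with log10 recovered reads -0.174, against 0.019 without them. The Spearman correlation with genes above 0 kept its sign, at 0.132, and 0.129 without the 22 libraries. In limma's fit with components on Mki67, Cdkn1a was called in 4 of 8 alternatives. Without components, limma's fit on Cdkn1a did not call Top2a (adjusted p = 0.0799), and 1 of 8 alternatives did. The fit on Top2a without components did not call Cdkn1a (adjusted p = 0.0535, limma), and 4 of 8 alternatives did. No paired comparison of groups was possible because the labels give a single group. The order of levels was tested on differences within libraries, and libraries that share an identifier were compared within it. The limma-voom alternative was run for the fits across genes, which also give correlations between the 4 genes. It was not run for the permutation tests of these correlations or for the order of levels. Depth limits Cdk1 most, at a median of 8 reads, and Cdkn1a least.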
